A study of Rattus norvegicus with 6 samples.

Results

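Elastic fibre, proteoglycan and matricellular genes were examined in 2 populations of mural cells of the rat brain cortex, the vascular smooth muscle cells of arterioles (VSMCs) and the pericytes of mid-capillaries (mcPCs). The members were taken by symbol: elastin and its microfibril and crosslinking partners, the latent TGF-beta binding proteins, the adhesive and matricellular glycoproteins, the small leucine-rich and chondroitin sulfate proteoglycans with their link proteins, and the glypicans. The rule used symbols and no measured value, but earlier results of these data were known when it was chosen. It gave 58 rows of the 14607 genes listed, for 56 of the 64 symbols looked for. Emilin3, Efemp1, Tnxb, Matn1, Matn3, Acan, Hapln2 and Gpc5 had no row. Ogn and Spon2 had 2 rows each, under different Ensembl identifiers, and reads may have been split between such rows in an uncertain way.

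The RNA-Seq comparison comprised 3 VSMC samples and 3 mcPC samples. All came from the cortex of male Sprague-Dawley rats aged 4 to 5 weeks, with the tissue of several animals pooled in each of 3 isolations. The sample titles carry the codes DN, DL and DK, which were taken here to mark the isolations. VSMCs were sorted positively with GSA lectin from arterioles, after removal of cells bearing CD31 (endothelium) or CD11b (microglia). mcPCs came from the filtrate by negative sorting and were what was left after removal of cells bearing CD31, CD11b, GLAST (astrocytes) or O4 (oligodendrocytes). A negative sort keeps whatever the antibodies do not label. The values at hand were the authors' means of each cell type. No spread between isolations can be given, no test was run, and a difference below is a difference between 2 means. Depth was 62.0 M reads per VSMC sample and 48.0 M reads per mcPC sample.

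Elastic fibres are made of a core of crosslinked elastin laid on microfibrils of fibrillin. Fibulins and EMILINs help to assemble them, lysyl oxidases crosslink them, and latent TGF-beta binding proteins tether growth factor to them. They give arteries their recoil and are scarce around capillaries, whose mural cells lie within a basement membrane. Matricellular proteins such as thrombospondins, SPARC, periostin and tenascins signal to cells more than they bear load, while proteoglycans carry sugar chains that bind growth factors and collagen.

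The markers of the cells went with the labels, but they are no independent check of them. The paper named the sorted cells in part by their contractile genes, such as Acta2. It also described the pericyte markers Ggt1, Abcc9, Kcnj8 and Atp13a5 as specific for mcPCs from these same data. The marker lists were chosen with earlier results of these data known. All 8 smooth muscle markers were at least 4-fold higher in VSMCs, with a summed abundance of 45203 TPM (transcripts counted per length and scaled to the same total in each sample) against 82.3 TPM in mcPCs. Of 7 capillary pericyte markers 6 were at least 4-fold higher in mcPCs, with a sum of 385 TPM in VSMCs against 1564 TPM in mcPCs. RNA of other cells was present too. Erythrocyte genes held 66.3% of the TPM of mcPCs and 0.869% of that of VSMCs. At least 4-fold higher in mcPCs were 9 of 14 endothelial markers (summed TPM 654 in VSMCs and 279 in mcPCs), 7 of 12 perivascular fibroblast markers (618 and 255), 6 of 7 astrocyte markers (15.1 and 23.4), 3 of 7 oligodendrocyte lineage markers (23.9 and 25.4), 6 of 8 neuron markers (13.6 and 26.3), 6 of 6 microglia and macrophage markers (0.893 and 12.4) and 5 of 5 leukocyte markers (4.43 and 208). These counts stand against 12.2% of all listed genes. Under 5 TPM in both cell types were 8 endothelial, 6 perivascular fibroblast, 5 astrocyte, 5 oligodendrocyte lineage, 6 neuron, 6 microglia and macrophage and 1 leukocyte markers. Of all such genes, 1248 of 4680 were at least 4-fold higher in mcPCs. The neuron marker Nefm was higher in VSMCs (9.04 and 0.187 TPM). The table keeps only genes read in every sample, so no listed marker was at 0. No row was found for 7 of 13 microglia and macrophage and 7 of 12 leukocyte markers.

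Because erythrocyte RNA takes up so much of the mcPC libraries, TPM and normalized counts answer different questions. The log2 ratio of mean TPM, mcPC over VSMC, had a median of -1.78 over all listed genes, whereas that of the authors' normalized counts had a median of 0.01. TPM, which is per length, is therefore used here to rank genes within a cell type. The log2 ratio of mean normalized counts, mcPC over VSMC (pseudocount 0.5), is used to compare the cell types, and every fold between the cell types below is on that scale unless TPM is named. Quotients of 2 genes within a cell type are of TPM. A gene with a positive ratio can therefore have less TPM in mcPCs than in VSMCs, and its direction then turns between the scales. Its 95% interval was computed from pooled reads with the exact binomial method and covers counting error only. In a bulk sample, fewer cells of a type and less RNA per cell cannot be told apart.

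Upstream sequence is shown for the members at the far ends of the comparison with at least 10 TPM, 2 in each direction: Fmod and Lox on the VSMC side, Postn and Spon2 on the mcPC side. The 250 bases before the annotated start of 3 of these genes, from RefSeq on the rat assembly GRCr8, are given 5' to 3'. Capitals mark a TATAAA match, 44 to 39 bases before the start of Postn. The windows are Fmod at chr13:48045317-48045566, Postn at chr2:140677811-140678060 and Spon2 at chr14:81736466-81736715, all on the plus strand.
Fmod: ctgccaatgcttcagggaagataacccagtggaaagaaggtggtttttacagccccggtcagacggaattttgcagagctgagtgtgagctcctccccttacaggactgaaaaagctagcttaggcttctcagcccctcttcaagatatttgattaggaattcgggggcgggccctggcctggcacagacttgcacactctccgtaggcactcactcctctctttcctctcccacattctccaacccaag
Postn: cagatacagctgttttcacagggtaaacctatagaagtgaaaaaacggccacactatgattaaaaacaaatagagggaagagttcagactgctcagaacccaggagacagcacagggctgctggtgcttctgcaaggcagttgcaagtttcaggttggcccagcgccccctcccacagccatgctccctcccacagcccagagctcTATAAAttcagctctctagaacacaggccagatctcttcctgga
Spon2: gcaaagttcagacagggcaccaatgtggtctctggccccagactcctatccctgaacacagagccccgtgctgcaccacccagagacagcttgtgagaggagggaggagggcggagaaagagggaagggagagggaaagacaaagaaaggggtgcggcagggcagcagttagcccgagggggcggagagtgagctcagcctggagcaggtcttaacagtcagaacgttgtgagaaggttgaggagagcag
Their GC content was 52.8% for Fmod, 50.8% for Postn and 59.2% for Spon2. The table of promoters held 38 of the 56 symbols. TATAAA, on either strand, was found in 5 of these 38 windows (13.2%), those of Ogn, Postn, Smoc1, Spp1 and Tnc, and in 13.1% of all 27456 windows. GGAATG, the core bound by TEAD factors, was found in 9 of 38 (23.7%) against 11.8% of all, 2 of them among the 9 matched genes at least 2-fold higher in VSMCs and 4 among the 21 at least 2-fold higher in mcPCs. GTGGGAA, the core bound by RBPJ downstream of Notch, was found in 3 of 38, those of Thbs4, Tnc and Vtn, against 5.22% of all. The CArG box of serum response factor and the AP-1 site TGANTCA were found in 0 of the 38 windows, against 1.5% and 6.36% of all. A match describes these letters and is not a binding site.

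In both cell types a few genes made up nearly all of the matrix transcripts considered here. The 58 rows summed to 16635 TPM in VSMCs, which was 1.67% of all TPM, and to 4582 TPM in mcPCs, which was 0.459%. Without the erythrocyte genes the shares were 1.68% and 1.36%. The 5 most abundant rows held 84.6% of the sum in VSMCs and 91.7% in mcPCs. In VSMCs these were Sparcl1, Mgp, Sparc, Bgn and Eln, and in mcPCs they were Vtn, Sparc, Mgp, Sparcl1 and Bgn. Thus 4 of the 5 leading genes were shared, with elastin as the other in VSMCs and vitronectin as the other in mcPCs. In VSMCs 13 rows reached 100 TPM, in mcPCs 5. Under 1 TPM were 18 rows in VSMCs and 17 in mcPCs.

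**Figure D1:**
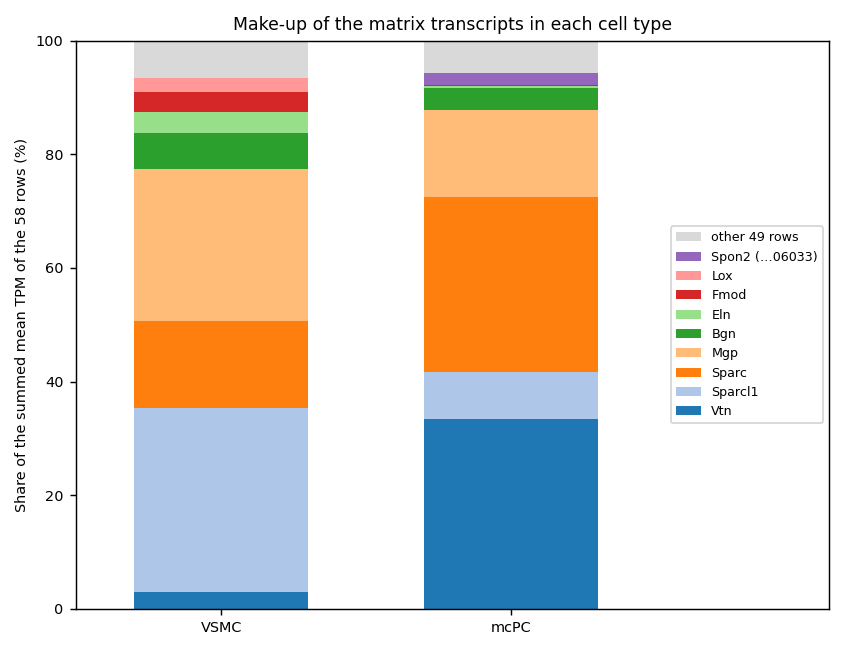
Share of the summed mean TPM of the 58 rows (%, y axis) taken by the 9 most prominent rows and by the other 49 rows, in VSMCs and in mcPCs. Sparcl1 and Mgp fill 32.4% and 26.7% of the VSMC bar, Vtn and Sparc 33.4% and 30.7% of the mcPC bar.

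Between the cell types the members spread wide in both directions. At least 2-fold higher in mcPCs were 30 rows (51.7%), against 21.8% of all listed genes, and at least 2-fold higher in VSMCs were 14 (24.1%), against 13.8%. At least 4-fold higher were 20 rows in mcPCs, against a background of 12.2%, and 8 rows in VSMCs, against 5.69%. The median log2 ratio of the 58 rows was 1.11, and over all genes it was 0.01. On TPM as it stands, 13 rows were at least 2-fold higher in mcPCs and 26 in VSMCs. The median was -0.56, against -1.78 over all genes, so most listed genes were themselves at least 2-fold higher in VSMCs there. The exact share was not computed. More TPM in mcPCs than in VSMCs was found for 21 of the 58 rows and for 2001 of all 14607 genes. Of the 43 rows with at least 0.8 TPM in VSMCs, 18 were 2-fold and 10 were 4-fold higher in mcPCs. That cut goes by the VSMC level, so it removes genes high only in mcPCs. The share of all genes under it was not computed. The paper dropped genes below this level, having found endothelial transcripts more abundant in its mcPCs. Rows below it that were at least 4-fold higher in mcPCs were Postn, Emilin2, Fbn2, Fbln2, Smoc1, Smoc2, Vcan, Gpc2, Gpc3 and Hapln4. The balance between the directions differed between rows under 5 TPM in both cell types and the rest. That cut was made on TPM, which was lower in mcPCs for most genes, so it sorted mainly by the level in VSMCs. A row high in only 1 cell type passed the cut through that cell type. The shares of all genes cut in the same way therefore stand beside the counts. Of the 27 rows under 5 TPM in both cell types, 19 were at least 2-fold higher in mcPCs (70.4%) and 3 in VSMCs (11.1%), where the shares of all such genes were 45.7% and 7.65%. The remaining 31 rows, with 5 TPM or more in at least 1 cell type, split evenly, with 11 higher in mcPCs and 11 in VSMCs (35.5% each), against 10.5% and 16.7% of all such genes. Past 4-fold, 5 of these 31 were higher in mcPCs (background 5.37%) and 8 in VSMCs (background 7.14%). Their median log2 ratio was -0.11, and that of all such genes was -0.18.

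**Figure D2:**
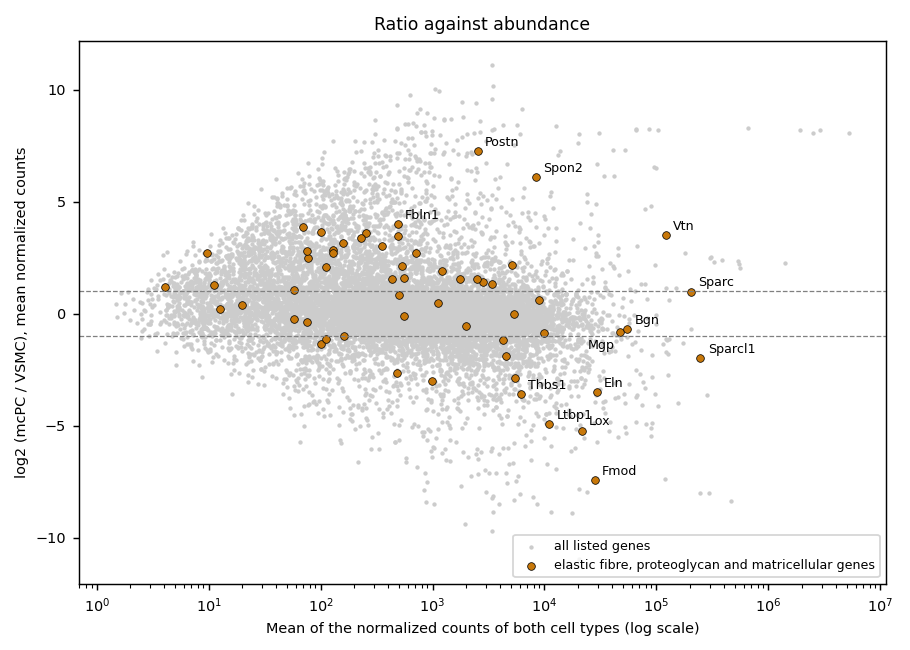
The log2 ratio of mean normalized counts, mcPC over VSMC (y axis), against the mean of the normalized counts of both cell types (x axis, log scale), for all 14607 listed genes in grey and the 58 rows in orange, with dashed lines at 2-fold. Abundant members lie on both sides, such as Fmod at -7.42 below and Vtn at 3.50 and Spon2 at 6.09 above, while most scarce members lie above the upper line.

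The core of the elastic fibre was far more abundant in VSMCs, whereas most small microfibril components were not. Elastin (Eln) had 621 TPM in VSMCs against 16.6 TPM in mcPCs, and was 11.4-fold higher in VSMCs (log2 ratio -3.51, interval -3.54 to -3.48). Fibrillin-1 (Fbn1), the main microfibril protein, had 21.2 and 2.76 TPM and was 2.23-fold higher in VSMCs. Emilin1, which sits where elastin meets the microfibrils, had 121 and 18.5 TPM and a log2 ratio of -0.87, less than 2-fold apart. On the other side stood 5 of the 8 rows, at least 2-fold higher in mcPCs, against 21.8% of all genes. Of these 5, 3 were under 5 TPM in both cell types, where 45.7% of genes were that much higher in mcPCs. The microfibril-associated proteins Mfap4 (14.0 and 15.9 TPM) and Mfap2 (3.20 and 7.38 TPM) had log2 ratios of 1.92 and 3.02. Mfap5, Fbn2 and Emilin2 had ratios of 2.48, 2.80 and 3.59, at 1.18 and 2.01, 0.0849 and 0.187, and 0.439 and 1.55 TPM in VSMCs and mcPCs. Within VSMCs elastin made up 79.4% of the TPM of this group. Within mcPCs it made up 25.6%, close to Emilin1 at 28.5% and Mfap4 at 24.5%.

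Among the fibulins, which bridge elastin to microfibrils, the dominant gene was the same in both cell types. Efemp2 (fibulin-4), which brings lysyl oxidase to elastin, had 138 TPM in VSMCs against 38.6 TPM in mcPCs, 87.5% and 79.5% of the fibulin TPM. Its log2 ratio was -0.02 with an interval of -0.05 to 0.02, so that its normalized counts, 5385 in VSMCs and 5321 in mcPCs, could not be told apart by counting. Its TPM, as it stands, was higher in VSMCs, as for most genes. Fbln7 had 17.8 and 4.64 TPM and a ratio of -0.11. The other 3 fibulins were at least 4-fold higher in mcPCs at low abundance, against 12.2% of all genes. They were Fbln5 (0.813 and 0.95 TPM, log2 ratio 2.09), Fbln2 (0.263 and 0.546 TPM, 2.84) and Fbln1 (0.833 and 3.84 TPM, 4.00). All 3 lay under 5 TPM in both cell types, where 1248 of 4680 genes were that much higher in mcPCs. Fbln1 was also 1 of the 4 rows whose mean effective length differed by over 5% between the cell types, with 2539 bases in VSMCs and 2280 in mcPCs.

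**Figure D3:**
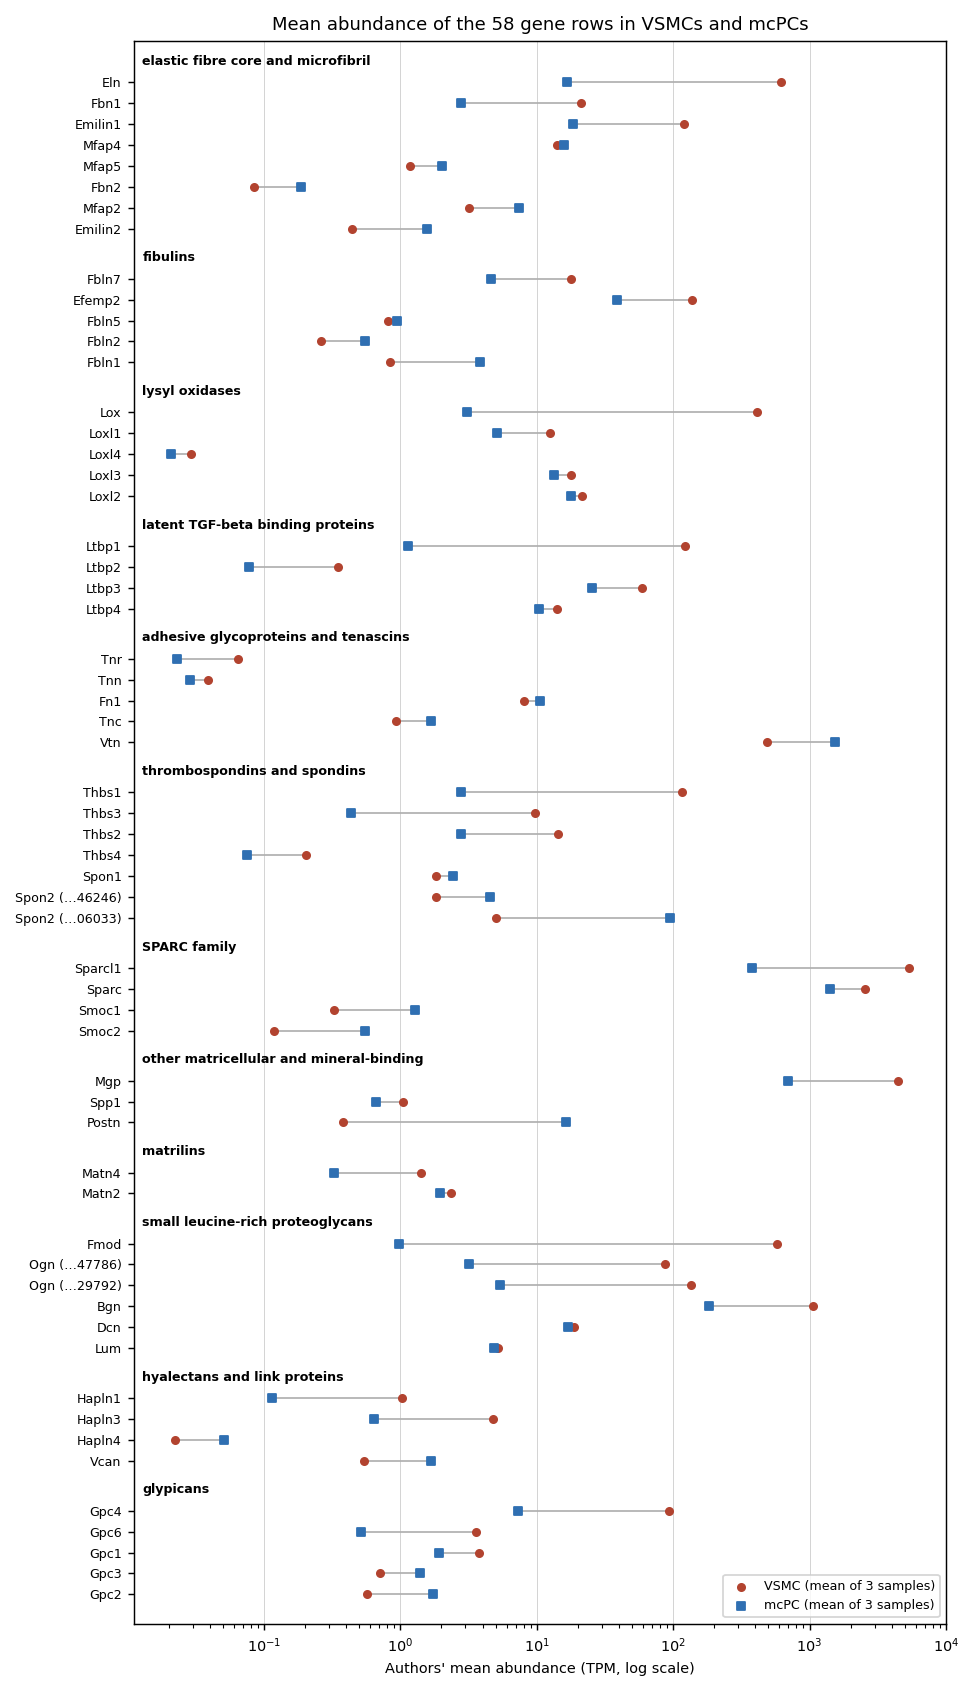
Authors' mean abundance (TPM, log scale, x axis) of the 58 rows in VSMCs (circles) and mcPCs (squares), grouped by role, with a line joining each pair. Fmod, Lox, Ltbp1, Eln and Thbs1 show the longest lines toward VSMCs, and Postn and Spon2 toward mcPCs.

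The lysyl oxidases, copper enzymes that crosslink elastin and collagen, differed in which member prevailed. Lox had 414 TPM in VSMCs against 3.08 TPM in mcPCs and was 37.3-fold higher in VSMCs (log2 ratio -5.22, interval -5.28 to -5.17). It made up 88.9% of the lysyl oxidase TPM of VSMCs and 7.83% of that of mcPCs. In mcPCs the leading members were Loxl2 (17.7 TPM, 45.1% of the group) and Loxl3 (13.3 TPM, 34.0%). Loxl2 had 21.3 TPM in VSMCs and a log2 ratio of 1.56, and Loxl3 had 17.9 TPM there and a ratio of 1.42. The direction of both turned on TPM as it stands. Within a cell type, where scaling plays no part, Lox was 19.4 times as abundant as Loxl2 in VSMCs, and Loxl2 was 5.76 times as abundant as Lox in mcPCs. Loxl1, which acts on elastin, differed by less than 2-fold (12.5 and 5.11 TPM, log2 ratio 0.49), and its direction turned too. Loxl4 was near the limit of detection, with 10 pooled reads in VSMCs and 13 in mcPCs, and its ratio of 1.17 turned in the same way. The mean effective length of Lox was 3361 bases in VSMCs and 3758 in mcPCs.

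The latent TGF-beta binding proteins showed the same kind of exchange. Ltbp1 had 123 TPM in VSMCs against 1.13 TPM in mcPCs and was 30.7-fold higher in VSMCs (log2 ratio -4.94, interval -5.02 to -4.87). Ltbp3 had 59.3 and 25.5 TPM and a ratio of 0.60, less than 2-fold, with a direction that turned on TPM as it stands. Ltbp4 had 14.2 and 10.3 TPM and a ratio of 1.35, and its direction turned on TPM as it stands. In VSMCs Ltbp1 was 2.07 times as abundant as Ltbp3, and in mcPCs Ltbp3 was 22.5 times as abundant as Ltbp1. Ltbp2, which does not bind latent TGF-beta, was at 0.346 and 0.0778 TPM with a ratio of -0.23 and an interval that included 0.

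Other genes of the latent TGF-beta system lay on both sides. Of the 12 with a row, 4 were at least 2-fold higher in mcPCs (33.3%, against 21.8% of all genes) and 3 in VSMCs (25%, against 13.8%). The ligands diverged. Tgfb3 had 209 TPM in VSMCs and 1.65 in mcPCs (log2 ratio -5.18), and Tgfb2 had 36.1 and 0.775 TPM (-3.74). Tgfb1 had 65.5 and 59.5 TPM and a ratio of 1.68, so that its direction turned on TPM. Lrrc32, a membrane anchor of latent TGF-beta, had 299 and 10.4 TPM (-3.02).

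**Figure D4:**
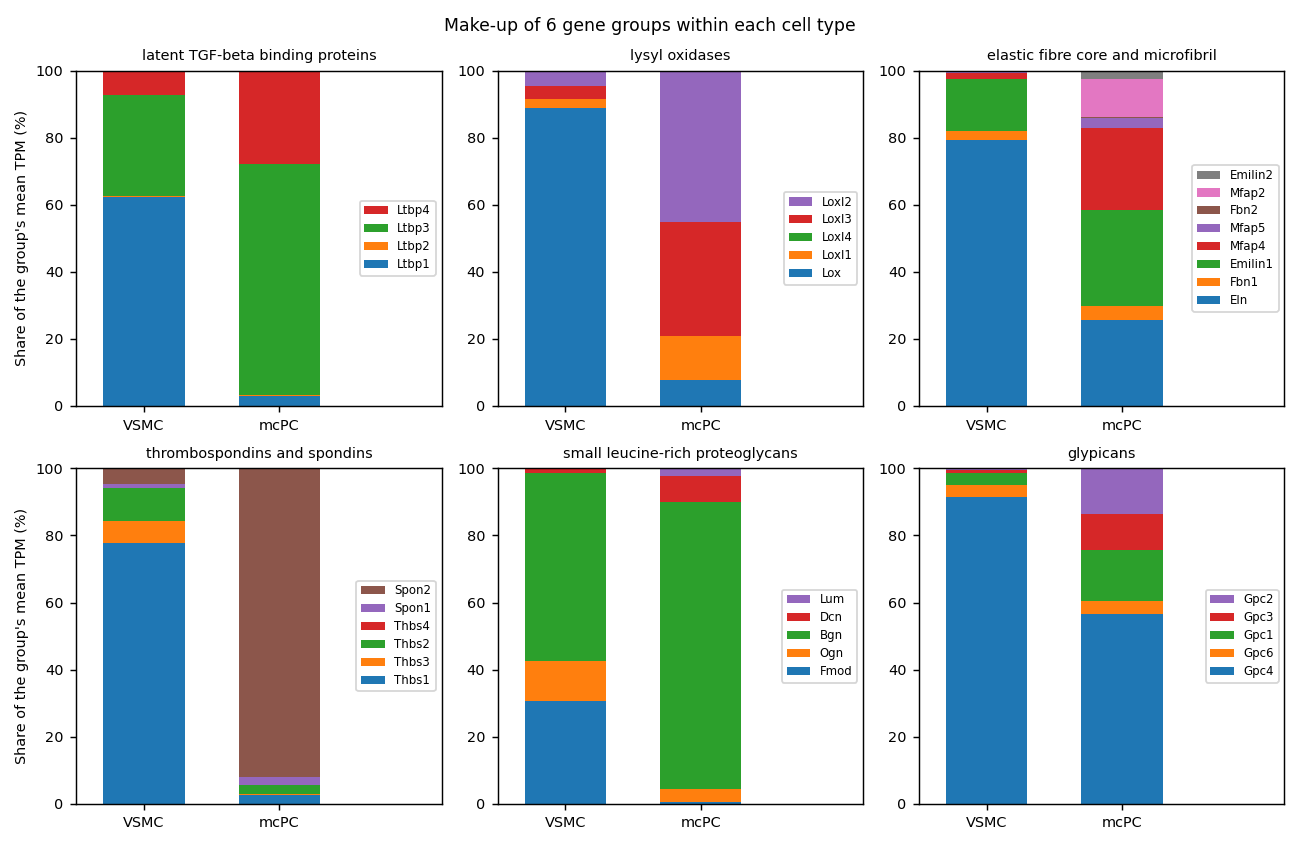
Share of each group's summed mean TPM (%, y axis) held by each gene in VSMCs and mcPCs, for 6 groups of genes, with the 2 rows of Ogn and of Spon2 added. The leading gene differs between the cell types in 4 groups (Ltbp1 and Ltbp3, Lox and Loxl2, Eln and Emilin1, Thbs1 and Spon2) and is shared in 2 (Bgn and Gpc4).

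Of the 5 adhesive glycoproteins and tenascins, 4 were at least 2-fold higher in mcPCs and none in VSMCs, against 21.8% and 13.8% of all genes. The 2 of these that lay under 5 TPM in both cell types, Tnc and Tnn, stand against 45.7% of such genes. Vitronectin (Vtn), a ligand of alpha-v integrins that is known as a product of brain pericytes, had 484 TPM in VSMCs against 1531 TPM in mcPCs. It was 11.3-fold higher in mcPCs (log2 ratio 3.50, interval 3.49 to 3.51) and was the transcript of rank 27 there, against rank 330 in VSMCs. Fibronectin (Fn1), an adhesive protein of many matrices, had 8.12 and 10.6 TPM and a ratio of 2.16. Tenascin-C (Tnc), an anti-adhesive glycoprotein of remodelling tissue, had 0.935 and 1.68 TPM and a ratio of 2.71. Tnn and Tnr, other members of the tenascin family, had less than 0.1 TPM in both cell types. The ratio of Tnn (1.28) turned in direction on TPM as it stands, and that of Tnr (0.22) could not be told from 0 by counting. Vitronectin was 59.7 times as abundant as fibronectin in VSMCs and 144 times in mcPCs.

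Of the thrombospondins, Thbs1 and Thbs3 were at least 4-fold higher in VSMCs, against 5.69% of all genes. The spondin rows were at least 4-fold higher in mcPCs, against 12.2%. Thbs1, an activator of latent TGF-beta, had 116 TPM in VSMCs against 2.79 TPM in mcPCs and was 12.1-fold higher in VSMCs (log2 ratio -3.59, interval -3.66 to -3.53). Thbs3 had 9.72 and 0.436 TPM (ratio -2.66), and Thbs2 had 14.3 and 2.77 TPM (ratio -0.54). Thbs4 was at 0.203 and 0.0755 TPM, with a ratio of 0.38 that turned in direction on TPM, and its interval included 0. Spon2, a secreted protein related to F-spondin, had 5.04 TPM in VSMCs against 95.4 TPM in mcPCs in its main row (ENSRNOG00000006033) and was 67.9-fold higher in mcPCs (log2 ratio 6.09, interval 6.0 to 6.18). Its other row (ENSRNOG00000046246) had 1.83 and 4.53 TPM and a ratio of 3.16. Spon1, F-spondin itself, had 1.82 and 2.42 TPM and a ratio of 2.14. Thbs1 made up 77.9% of the TPM of this group in VSMCs and Spon2 92.2% in mcPCs.

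**Figure D5:**
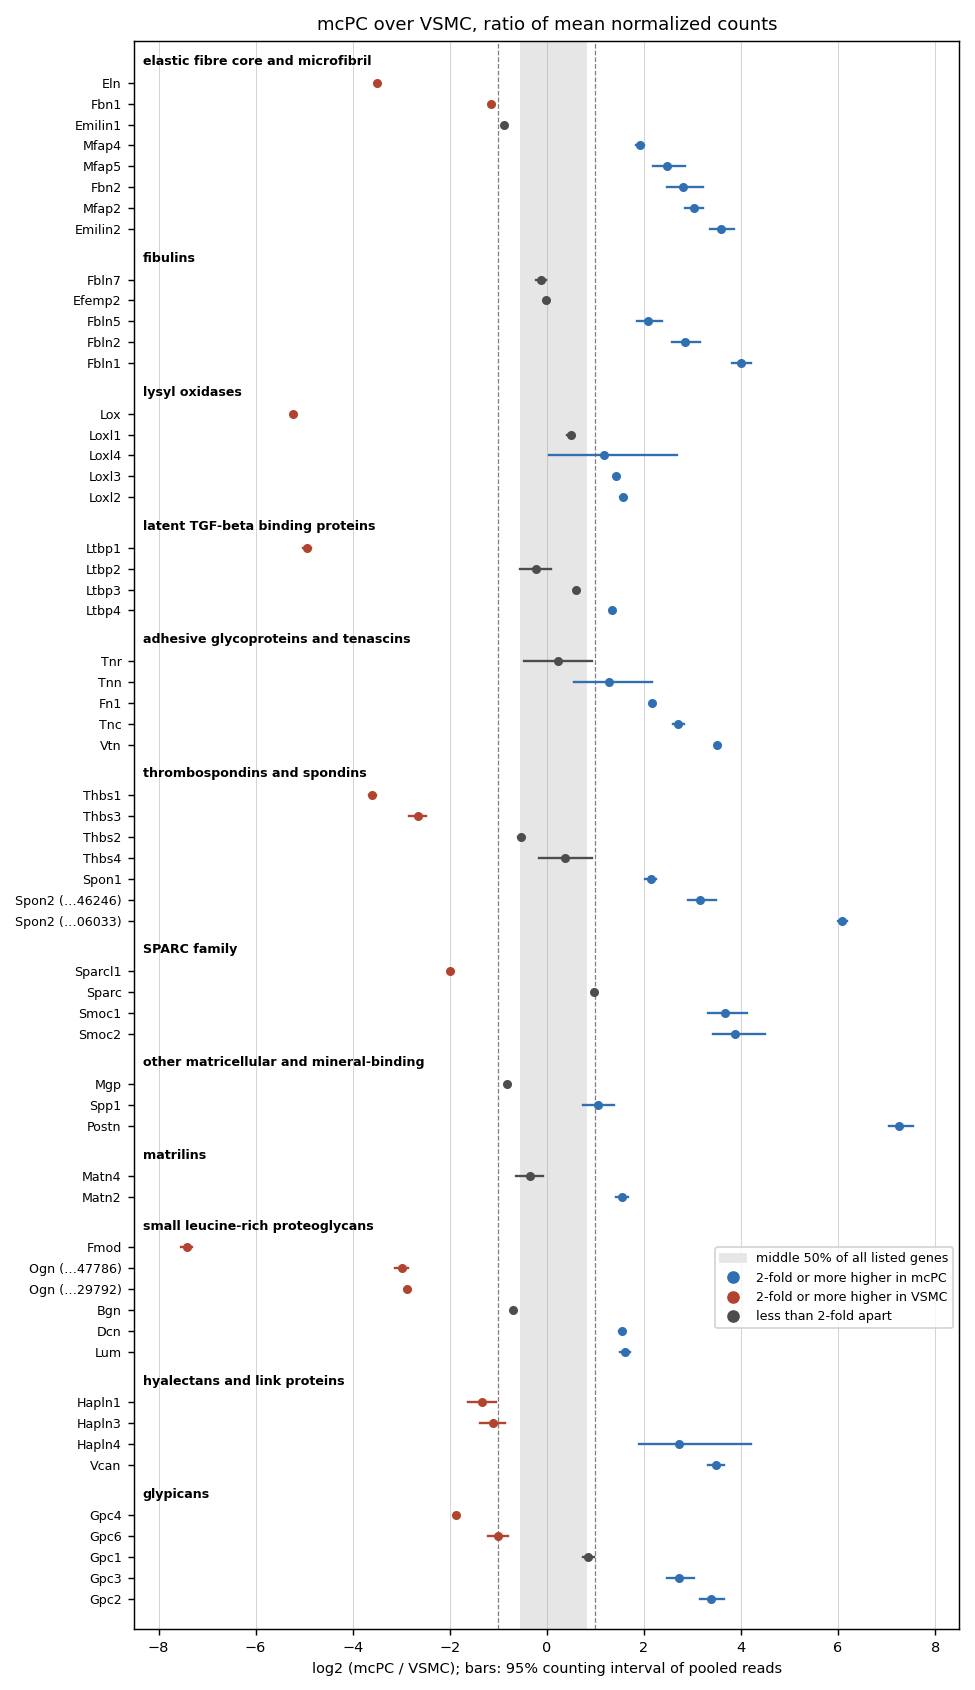
The log2 ratio of mean normalized counts, mcPC over VSMC (x axis), for the 58 rows by role, with bars for the 95% counting interval, dashed lines at 2-fold and a grey band for the middle 50% of all genes. Most groups hold rows on both sides of the band, and the widest bars belong to Loxl4, Hapln4, Tnn and Tnr, which had few reads.

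The SPARC family supplied 2 of the 4 most abundant of the 58 rows in each cell type, in opposite order. Sparcl1 (hevin), a glycoprotein also abundant in astrocytes, had 5398 TPM in VSMCs, rank 14 of all genes, and 381 TPM in mcPCs. It was 3.98-fold higher in VSMCs (log2 ratio -1.99), just short of 4-fold. Sparc, which binds collagen, had 2549 and 1407 TPM and was 1.97-fold higher in mcPCs (log2 ratio 0.97), just short of 2-fold, although its TPM was higher in VSMCs. In TPM, Sparcl1 exceeded Sparc 2.12-fold in VSMCs, while Sparc exceeded Sparcl1 3.69-fold in mcPCs. The astrocyte markers with a row summed to 15.1 TPM in VSMCs, 13.6 TPM of it from Aldoc, and to 23.4 TPM in mcPCs, and their part in the value of Sparcl1 was not tested. Smoc1 and Smoc2, calcium-binding relatives, were at 0.326 and 1.27 TPM (ratio 3.67) and at 0.119 and 0.552 TPM (ratio 3.87). Of all genes under 5 TPM in both cell types, 1248 of 4680 were at least 4-fold higher in mcPCs.

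Periostin (Postn), a collagen-binding matricellular protein of fibroblasts and injured vessels, had the highest ratio of the 58 rows. It had 0.378 TPM in VSMCs against 16.3 TPM in mcPCs, from 133 and 10819 pooled reads, and was 154-fold higher in mcPCs (log2 ratio 7.26, interval 7.04 to 7.54). Its VSMC level lay under the 0.8 TPM below which the paper removed genes to filter out contaminating transcripts. Matrix Gla protein (Mgp), an inhibitor of vascular calcification, was among the most abundant genes in both cell types, with 4440 TPM in VSMCs against 701 TPM in mcPCs. Its log2 ratio was -0.83, less than 2-fold. Osteopontin (Spp1) was low in both (1.04 and 0.661 TPM). Its ratio of 1.05 turned in direction on TPM as it stands, as did that of the matrilin Matn2 (1.55, at 2.35 and 1.95 TPM). Matn4 was less than 2-fold apart (ratio -0.35).

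The small leucine-rich proteoglycans, which bind collagen fibrils and set their diameter, held the widest contrast in the direction of VSMCs. Fibromodulin (Fmod) had 581 TPM in VSMCs against 0.981 TPM in mcPCs and was 172-fold higher in VSMCs (log2 ratio -7.42, interval -7.53 to -7.32). Osteoglycin (Ogn) had 135 and 5.41 TPM in 1 row (ENSRNOG00000029792, ratio -2.88) and 87.4 and 3.19 TPM in the other (ENSRNOG00000047786, ratio -2.99). Biglycan (Bgn) was the leading member in both cell types, with 1062 and 184 TPM, and was less than 2-fold apart (ratio -0.70). Decorin (Dcn) and lumican (Lum), the typical proteoglycans of fibroblasts, had 18.7 and 16.9 TPM (ratio 1.54) and 5.19 and 4.86 TPM (ratio 1.61), and the direction of both turned on TPM as it stands. Fmod was 112 times as abundant as Lum in VSMCs, whereas in mcPCs Lum was 4.96 times as abundant as Fmod. By contrast the quotient of Mgp to Bgn was almost the same in the cell types, 4.18 in VSMCs and 3.81 in mcPCs.

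Several mcPC-higher members are also products of perivascular fibroblasts or endothelium, so their markers stand beside them. Of the 12 fibroblast markers with a row, 7 were at least 4-fold higher in mcPCs, against 12.2% of all genes. Of these 7, 5 were under 5 TPM in both cell types, where 1248 of 4680 genes were that much higher in mcPCs. Among the 7 were Slc6a13 (3.06 and 132 TPM, log2 ratio 7.26), Pdgfra (0.575 and 1.03 TPM, 2.58) and Dpt (0.969 and 1.36 TPM, 2.79). Foxc1 was higher in VSMCs (173 and 13.5 TPM, -1.86), and the collagens Col1a1 (114 and 31.6 TPM) and Col3a1 (300 and 56.5 TPM) had ratios of -0.13 and -0.63. Of the endothelial markers, Cldn5 had 0.643 and 15.4 TPM (ratio 6.31) and Cd34 1.40 and 32.4 TPM (ratio 6.53), the highest ratios of the 14. Flt1, Slc2a1 and Ocln leaned to VSMCs (-0.78, -0.50 and -0.33), and Erg (0.28) and Esam (0.43) were near 0. Among leukocyte markers, Lyz2 had 0.768 and 131 TPM (ratio 9.13). The part of such cells in the values of Postn, Spon2, Fn1, Dcn, Lum, Fbln1, Fbln2, Tnc and Vcan was not tested.

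The hyalectans and link proteins, which hold hyaluronan in a gel, were scarce, with sums of 6.35 TPM in VSMCs against 2.48 TPM in mcPCs. Versican (Vcan) had 0.537 and 1.68 TPM and a log2 ratio of 3.48. Hapln1 and Hapln3, link proteins, were at least 2-fold higher in VSMCs (ratios -1.33 and -1.11), with Hapln3 at 4.76 and 0.635 TPM. Hapln4, a link protein of the neural matrix, had 9 and 38 pooled reads, and its ratio of 2.71 had an interval of 1.89 to 4.20.

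Among the glypicans, heparan sulfate proteoglycans anchored to the cell surface, Gpc4 led in both cell types. It had 93.9 TPM in VSMCs against 7.25 TPM in mcPCs and was 3.66-fold higher in VSMCs (log2 ratio -1.87). It made up 91.6% of the glypican TPM in VSMCs and 56.6% in mcPCs. Gpc2 and Gpc3 were at least 4-fold higher in mcPCs, with ratios of 3.38 (0.570 and 1.74 TPM) and 2.73 (0.709 and 1.39 TPM). The share of all genes was 12.2%, and of those under 5 TPM in both cell types, as these were, 1248 of 4680. Gpc6 lay at the 2-fold line toward VSMCs (ratio -1.01) and Gpc1 less than 2-fold apart (0.86), with a direction that turned on TPM as it stands.

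The enzymes that build the sugar chains of these proteoglycans were grouped by function and read against the same shares of all genes, 21.8% for mcPCs and 13.8% for VSMCs, with 45.7% and 7.65% for genes under 5 TPM in both cell types. The 17 genes of linkage and chain polymerization differed little, with 1 at least 2-fold higher in mcPCs, 3 in VSMCs and a median log2 ratio of 0.10. Extl3, the most abundant of them, had 125 and 36.9 TPM and a ratio of 0.07, and Extl1 had the farthest ratio (7.0 and 0.296 TPM, -2.78). Of 11 genes of heparan sulfate modification, 7 were at least 2-fold higher in mcPCs, 5 of them under 5 TPM in both cell types, and 1 in VSMCs. The latter was Ndst1, the N-sulfating enzyme (37.0 and 2.18 TPM, -2.26), and among the former Hs3st1, a 3-O-sulfotransferase, had 2.12 and 8.68 TPM (3.87). Of 9 genes of chondroitin and dermatan sulfate modification, 5 were higher in mcPCs, 3 of them under 5 TPM in both, and 1 in VSMCs at that threshold, and the most abundant, Chst3, had 89.3 and 21.9 TPM and a ratio of -0.20. Of 10 hyaluronan genes, 4 were higher in mcPCs, all 4 of them under 5 TPM in both, and 3 in VSMCs. The hyaluronidase Hyal1 had 46.8 and 0.211 TPM (-5.95).

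Of 16 receptors for these proteins with a row, 7 were at least 2-fold higher in mcPCs (43.8%, against 21.8% of all genes) and 2 in VSMCs (12.5%, near the 13.8% of all genes). Of these 7, 3 were under 5 TPM in both cell types, where 45.7% of genes were that much higher in mcPCs. The 2 higher in VSMCs were Itga8, whose integrin binds nephronectin and fibronectin (91.7 and 0.282 TPM, log2 ratio -6.54), and the syndecan Sdc4 (297 and 1.77 TPM, -5.56). Itgb1, the beta subunit most integrins share, was the most abundant (861 and 140 TPM, -0.79). The most abundant of the 7 higher in mcPCs was the syndecan Sdc3 (39.6 and 58.4 TPM, 2.40). In mcPCs Plaur, the urokinase receptor, which binds vitronectin, had 8.07 TPM against 0.650 TPM in VSMCs (5.35), and Cd36, a receptor for thrombospondin-1, had 7.25 against 0.627 TPM (5.31). The part of other cells in the values of Plaur and Cd36 was not tested. Of 35 other matrix glycoproteins and proteoglycans, 14 were at least 2-fold higher in mcPCs (40.0%, against 21.8% of all genes) and 12 in VSMCs (34.3%, against 13.8%). Of these 14, 10 were under 5 TPM in both cell types, where 45.7% of genes were that much higher in mcPCs. The nephronectin gene Npnt had 73.3 and 1.07 TPM (-4.34), and the brain proteoglycan Ncan 0.0549 and 0.886 TPM (5.73). The most abundant was Igfbp7, a secreted binding protein of insulin-like growth factors, with 3960 and 1691 TPM (0.61).

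Effective length, which shifts when other transcripts of a gene are used, differed by over 5% in 4 of the 58 rows, where 8.06% of all listed genes did, and was the same in 38. The other 2 besides Lox and Fbln1 were Spon1 and Tnr.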

How the data were processed

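Polyadenylated RNA was sequenced strand-specifically as single-end reads, each library in 4 runs. The authors trimmed and filtered reads with Eoulsan, estimated TPM and counts with Salmon 0.8.0 on the Ensembl transcripts of Rnor_6.0, collapsed them to genes (tximport) and normalized with DESeq2. The authors deposited 1 table with means per cell type: TPM, estimated counts per run, normalized counts (a signal, counts after DESeq2's scaling) and effective lengths. Its columns of log2 fold change, standard error, p-value and adjusted p-value hold the authors' own comparison and were not used.

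Since no value per sample is given, the planned count test was not run, and there is no SD, left-out sample or p-value. Of the mean counts 70.7% were whole multiples of 1/12 of a read (tolerance 0.01), so each was taken as a mean over the 12 runs and multiplied back to pooled reads. Log2 ratios used normalized counts with a pseudocount of 0.5. Exact binomial (Clopper-Pearson) intervals of 95% on pooled reads cover counting error only. Other scales were TPM (pseudocount 0.01) and counts scaled to the same total, with and without erythrocyte genes. Values are given for members with 5 TPM in either cell type or past 4-fold, and the rest by name, range or count. Members and lists were chosen with earlier results of these data known. Genes were matched by symbol. Promoters came from RefSeq on GRCr8, another assembly than that of the counts. The ratios and counting intervals, and no other step, were tested on simulated reads that held counting error but no spread between isolations. Computation used scipy 1.17.1, numpy 2.4.6, pandas 2.3.3 and matplotlib 3.10.9 in Python 3.11.15.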

Additional observations from a re-analysis of the deposited data

How the results depend on the processing

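No paired analysis was possible because the values are means per cell type, which carry no isolation label. For the same reason leaving out a sample and the fits by other tools were not run, and nothing here measures the spread between isolations.

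On TPM as it stands, 13 members were at least 2-fold higher in mcPCs, 26 in VSMCs, 4 at least 4-fold higher in mcPCs and 20 in VSMCs. The median log2 ratio was -0.56, against -1.78 for all genes. Most genes were thus at least 2-fold higher in VSMCs on TPM, and the shares of all genes past these folds were not computed. Loxl3 (-0.42), Loxl2 (-0.27), Ltbp4 (-0.46), Dcn (-0.15), Lum (-0.093), Loxl4 (-0.34), Tnn (-0.34), Spp1 (-0.65) and Matn2 (-0.27) then turned toward VSMCs, as did 6 members less than 2-fold apart, Sparc (-0.86), Ltbp3 (-1.22), Loxl1 (-1.28), Gpc1 (-0.97), Tnr (-1.18) and Thbs4 (-1.32), making 15 in all. Requiring 0.8 TPM in VSMCs left 43 members, 18 of them 2-fold and 10 of them 4-fold higher in mcPCs, with a median of 0.49. The shares of all genes under that cut were not computed. The median was 1.23 for TPM relative to the median gene, 0.89 for TPM without erythrocyte genes, 1.29 for counts without erythrocyte genes, 0.57 for counts brought to equal totals, 0.93 with a pseudocount of 5 and 0.92 among members with 1 TPM in either cell type. The other alternatives left the 4 counts over the 58 rows within 1.5 times those reported, including those with rows of 1 symbol summed, an alternative chosen after seeing the data. Counts by abundance, role or list were not recomputed. Depth limits the 8 members with under 100 pooled reads in VSMCs and the 5 in mcPCs.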
